A study of Mus musculus with 8 samples.

Results

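Fatty acid uptake and binding genes were examined in chromatin accessibility data from fasted mouse liver. The 8 genes were the membrane receptor Cd36, the transport proteins Slc27a1, Slc27a2, Slc27a4 and Slc27a5, and the binding proteins Fabp1, Fabp2 and Fabp4. A region belonged to them when its nearest protein-coding gene, by distance to the gene span and within 100 kb, was 1 of the 8. This gave 38 of the 49587 consensus regions (unions of overlapping peaks from all libraries), assigned to 7 of the 8 genes. Slc27a2 had 11 regions, Cd36 had 8, Fabp1 had 7, Fabp2 had 5, Slc27a5 had 3, and Slc27a1 and Slc27a4 had 2 each. Fabp4 had none. No member region lay equally near to another gene, and no region beyond 100 kb had a member as its nearest gene.

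ATAC-seq, in which a transposase cuts open chromatin and tags it for sequencing, was done on flash-frozen livers of 9-week-old male C57BL/6 mice after a 24 h fast. There were 8 libraries, 2 for each of 4 genotypes: wild type, Cpt2 L-/- (loss of Cpt2 in liver), Ppara -/- (loss of Ppara in the whole body), and Cpt2 L-/- ; Ppara -/- (both, called double knockout). The Cre driver behind the liver knockout is not named in the labels, nor is it said that the 2 libraries of a genotype came from separate animals, so spread between them may be technical. Wild type and Cpt2 knockout are called Ppara-intact, and Ppara knockout and double knockout Ppara-null. Cpt2 is an enzyme that mitochondria need to oxidise long-chain fatty acids, and Ppara is a nuclear receptor that binds fatty acids and drives their oxidation in fasting.

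Fatty acids released from adipose tissue in fasting reach the liver bound to albumin. They enter hepatocytes with the help of Cd36 and of the Slc27a proteins (also called FATPs), which also join them to coenzyme A, and are carried in the cytosol by FABPs. Fabp1 is the abundant liver form, Fabp2 the intestinal form and Fabp4 the form of adipocytes, macrophages and some endothelium. Cd36 and Fabp1 are textbook targets of Ppara, which binds DNA with RXR at direct repeats of AGGTCA spaced by 1 base.

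Start sites and sequences are RefSeq's, from a table of promoters whose build, GRCm38.p6, corresponds to mm10 and which held 6 of the 8 genes and neither Fabp4 nor Slc27a5. The 250 bases before a start are shown for Fabp1, whose start was called in Ppara-intact libraries alone, and for 3 starts inside regions called in all 8 libraries, Slc27a1 (the third of its 3 listed starts), Slc27a2 and Slc27a4. Capitals mark matches on either strand to the motifs searched. These were the hexamer AGGTCA, the strict direct repeat (that hexamer, any 1 base, and the hexamer again), and the loose direct repeat, made likewise of AGGNCA with any base at N. The others were an HNF4-type sequence, CAAAGTCCA, the TATA box as TATAAA, and the CCAAT box. A hexamer match may lie inside a repeat. They lie at chr6:71199629-71199878, chr8:71570344-71570593, chr2:126552774-126553023 and chr2:29802384-29802633, each on the plus strand and read 5′ to 3′.
Fabp1: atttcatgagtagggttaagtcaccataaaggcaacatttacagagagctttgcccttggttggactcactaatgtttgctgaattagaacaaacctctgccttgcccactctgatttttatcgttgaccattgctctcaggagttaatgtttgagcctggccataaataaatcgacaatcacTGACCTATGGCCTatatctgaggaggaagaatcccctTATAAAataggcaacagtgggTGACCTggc
Slc27a1: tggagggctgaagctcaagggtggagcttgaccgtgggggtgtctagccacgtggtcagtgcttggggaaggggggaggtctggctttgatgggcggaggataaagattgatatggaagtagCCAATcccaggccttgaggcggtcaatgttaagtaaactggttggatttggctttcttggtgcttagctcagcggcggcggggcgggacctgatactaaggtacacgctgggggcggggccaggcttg
Slc27a2: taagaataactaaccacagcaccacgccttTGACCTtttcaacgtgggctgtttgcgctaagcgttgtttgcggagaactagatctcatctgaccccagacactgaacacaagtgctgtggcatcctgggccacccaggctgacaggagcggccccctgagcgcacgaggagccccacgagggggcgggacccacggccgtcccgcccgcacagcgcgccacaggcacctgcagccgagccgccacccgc
Slc27a4: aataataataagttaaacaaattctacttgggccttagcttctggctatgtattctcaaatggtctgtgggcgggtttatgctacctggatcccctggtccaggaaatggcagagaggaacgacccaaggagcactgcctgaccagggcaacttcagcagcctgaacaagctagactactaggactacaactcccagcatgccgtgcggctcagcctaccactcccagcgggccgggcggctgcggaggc

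Over the 300 bases searched per start, which include 50 after it, Fabp1 was the 1 member with a match to the loose direct repeat. The match, TGACCTATGGCCT, lay 67 to 55 bases before the start and reads AGGCCATAGGTCA on the other strand. Of 32851 promoters in the table, 0.381% held this loose repeat and 0.0396% held the strict one, which no member promoter held. Fabp1 had a second AGGTCA match, 9 to 4 bases before the start, and TATAAA 30 to 25 bases before it. Slc27a2 and Cd36 had 1 AGGTCA match each, a hexamer found in 16.3% of promoters. CAAAGTCCA, found in 0.475% of promoters, matched no member. The first listed start of Slc27a1, whose sequence is not shown, lay in a region called in 3 Ppara-intact libraries alone. That start had no match to AGGTCA or to either repeat. A match describes the letters and does not show binding.

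A region was called in a library when a peak of that library overlapped it by at least 1 bp. Fold, the height of a peak over its local background, and −log10 p are the peak caller's values as the authors deposited them. They are not scaled between libraries, and are given to describe the peaks. The files used here hold no read totals, so depth is unknown and no counting interval is given. The peak lists held 28733 to 39296 peaks with Ppara intact and 18132 to 22715 without it, and the number inside the peak names ran from 441 to 4717 and from 6831 to 6834 respectively. If that number marks how samples were handled, handling and Ppara status cannot be told apart. Counts are therefore also given for equal-number lists, the strongest 18132 peaks of each library by −log10 p. The weakest peak kept had a −log10 p of 21.75 to 37.9 in Ppara-intact libraries and 7.77 to 14.6 in Ppara-null ones. Of 10 hepatocyte marker genes, 10 had a region within 1 kb of a gene end and 9 had one called in all 8 libraries.

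Wild type libraries called 19 and 25 of the 38 regions, Cpt2 knockout libraries 31 and 29, Ppara knockout libraries 11 and 10, and double knockout libraries 13 and 11. The Ppara-intact and Ppara-null values did not overlap. As shares these were 50% to 81.6% and 26.3% to 34.2%, beside 56.9% to 77.7% and 35.5% to 44.5% for all consensus regions. In equal-number lists the Ppara-null libraries called 10 to 12 member regions and the Ppara-intact libraries 12 to 20, with wild type 1 and double knockout 1 both at 12. These are 26.3% to 31.6% and 31.6% to 52.6% of the members, beside 35.3% to 36.4% of all regions over the 8 libraries. Both Cpt2 knockout libraries stood highest in either kind of list.

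**Figure D1:**
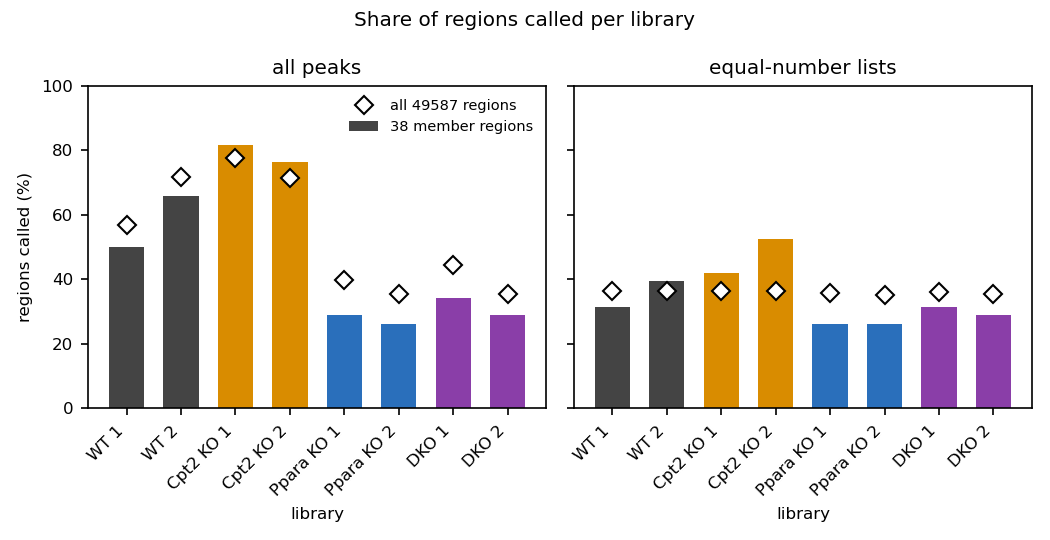
Share of regions called per library, in percent, for the 38 member regions (bars, coloured by genotype) and for all 49587 regions (diamonds), with all peaks on the left and equal-number lists on the right. With all peaks the 4 Ppara-intact bars reach 50% to 81.6% and the 4 Ppara-null bars 26.3% to 34.2%, and in equal-number lists wild type 1 and double knockout 1 meet at 31.6%.

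Of the 38 regions, 7 were called in all 8 libraries (18.4%, beside 22.7% of all regions) and 9 in 1 library (23.7%, beside 23%). Of the same 38, 23 were called in at least 1 Ppara-intact and no Ppara-null library (60.5%, beside 42.3%), and 1 the reverse (2.63%, beside 5.43%). The regions called in 1 library are counted again among these. By place, 9 of the 38 touched or came within 1 kb of an end of the gene, 13 lay elsewhere inside a gene and 16 outside. Those called in all 8 libraries comprised 4 at gene ends, 1 inside a gene and 2 outside. Shares by place over all consensus regions were not taken, so whether this split is particular to these genes was not tested.

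**Figure D2:**
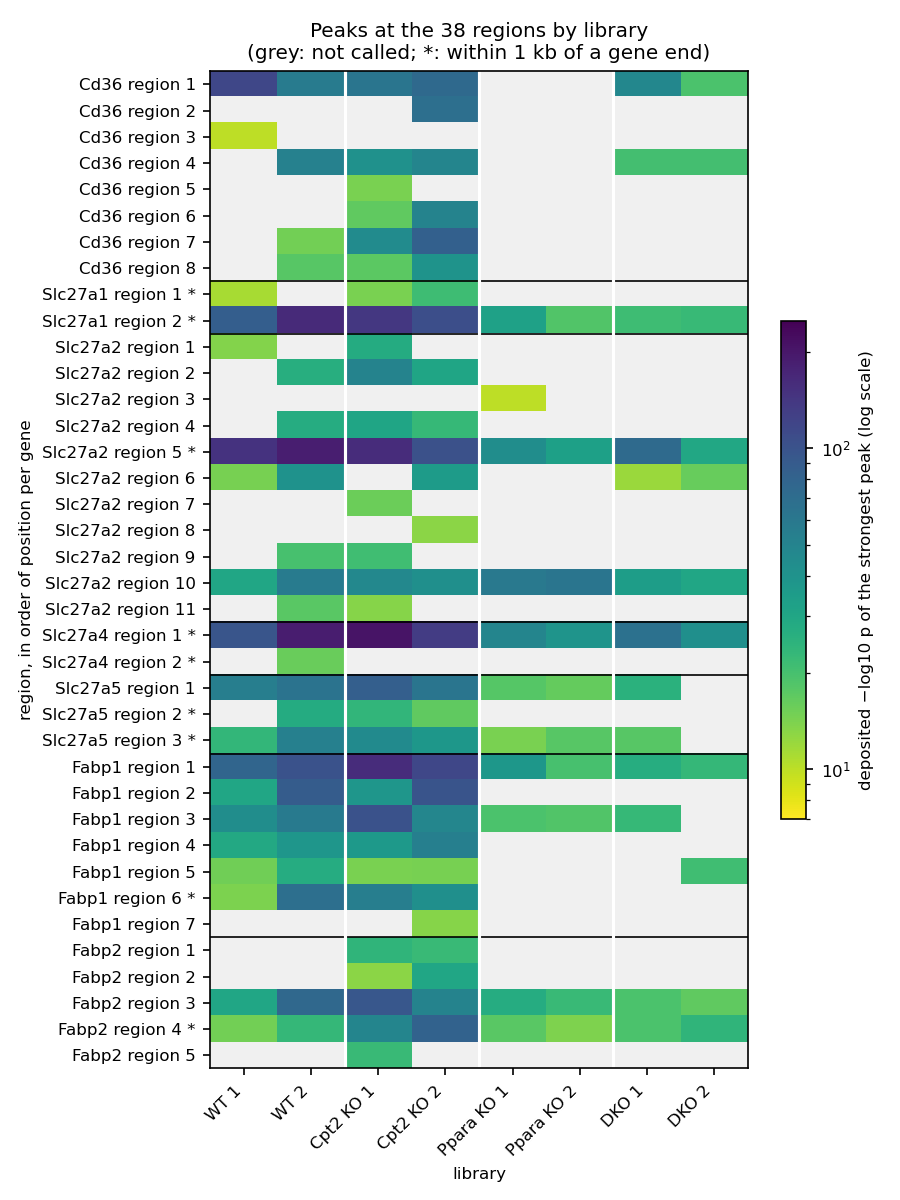
Deposited −log10 p of the strongest peak (colour, log scale) at each of the 38 regions (rows, numbered by position within each gene) in each of the 8 libraries (columns). Grey cells are regions not called in that library. Cd36 is grey throughout in both Ppara knockout libraries, and 7 rows are coloured in all 8 libraries.

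Ppara status was compared first, 4 Ppara-intact against 4 Ppara-null libraries. Called in all 4 Ppara-intact and in no Ppara-null library were 3 of the 38 regions (7.89%, beside 6.82% of all regions), and all 3 were at Fabp1. None was called in all 4 Ppara-null libraries alone, beside 0.0686% of all regions, or beside 0.512% in equal-number lists. For each of the 3, the two-sided exact test of calls gave p = 0.0286, the smallest that 4 against 4 can give, and a Benjamini-Hochberg adjusted p of 0.415 over all 49587 regions. No region in the series had an adjusted p under 0.05, while 3418 had an unadjusted p under it. In equal-number lists 1 of the 3 stayed complete (2.63%, beside 0.811%), and without wild type 1 the count was 8 (21.1%, beside 11.8% of all regions under the same omission).

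Fabp1, on chromosome 6 from 71199879 to 71205034, carried the 3 separated regions among its 7. The region over its start (71199587 to 71200088) had a −log10 p of 14.2 and 67.7 in wild type and of 54.4 and 42.4 in Cpt2 knockout, and was called in no Ppara-null library. Its folds were 3.9, 7.09, 6.1 and 5.52 in the same order. Wild type 1 was the lowest of the 4, at percentile 13.9 of its own list, and no longer called the region in equal-number lists, where the other 3 Ppara-intact libraries did. The summits lay 109 and 101 bases before the start in wild type and 58 and 40 bases before it in Cpt2 knockout. Relative to the centre of the loose-repeat match, the wild type summits lay at −48 and −40 bases and the Cpt2 knockout summits at 3 and 21 bases, negative being upstream.

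**Figure D3:**
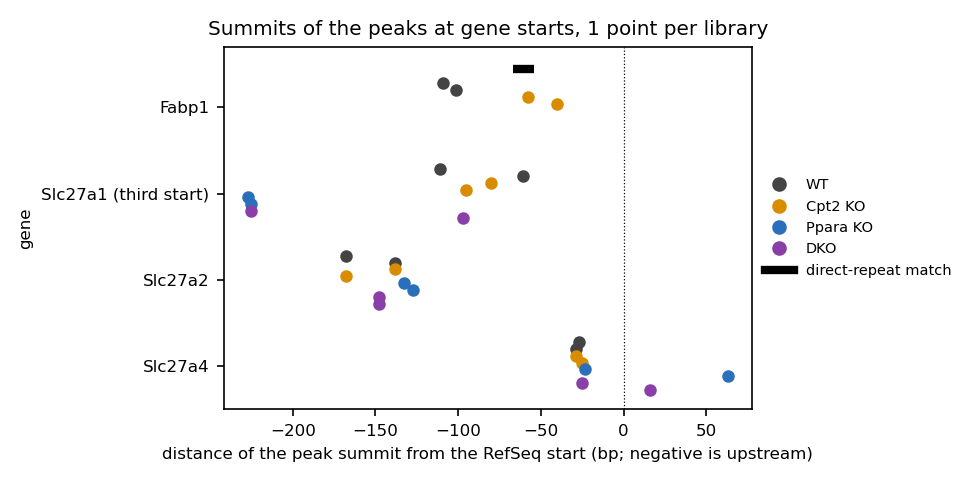
Distance of the peak summit from the RefSeq start in bp (x axis, negative upstream) at 4 genes (rows), with 1 point per library coloured by genotype and the loose-repeat match of Fabp1 as a black bar. Fabp1 has 4 points, all from Ppara-intact libraries and 109 to 40 bases before the start, while the other genes have a point from each of the 8 libraries.

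Upstream of Fabp1, the region about 14.4 kb before the start (71185019 to 71185714) had a −log10 p of 30.3 and 88.2 in wild type and 38 and 98.6 in Cpt2 knockout. It was the separated region that stayed complete in equal-number lists, though Cpt2 knockout 1 entered there at percentile 0.116, just above the weakest peak kept. The third lay 3.61 kb before the start (71196138 to 71196445), with 29 and 38.4 in wild type and 36.6 and 53.2 in Cpt2 knockout, and Cpt2 knockout 1 lost it in equal-number lists. In all 3 regions the libraries of the 2 Ppara-intact genotypes overlapped.

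Not all chromatin near Fabp1 followed this pattern. The region farthest upstream, 26.9 kb before the start (71172747 to 71173554), was called in all 8 libraries, with −log10 p of 78.2 and 101 in wild type, 160 and 116 in Cpt2 knockout, 37.7 and 19.8 in Ppara knockout, and 27 and 23 in double knockout. The region 10.1 kb upstream (71189575 to 71189972) was called in 7, missing double knockout 2, with 43.2 to 102 where Ppara was intact and 18.4 to 22.9 in the 3 others that called it. The region 2.04 kb upstream was called in the 4 Ppara-intact libraries and in double knockout 2, whose −log10 p of 20.9 lay inside the Ppara-intact range of 14.4 to 27.5. The last of the 7, 6.6 kb after the start, was called in Cpt2 knockout 2 alone.

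**Figure D4:**
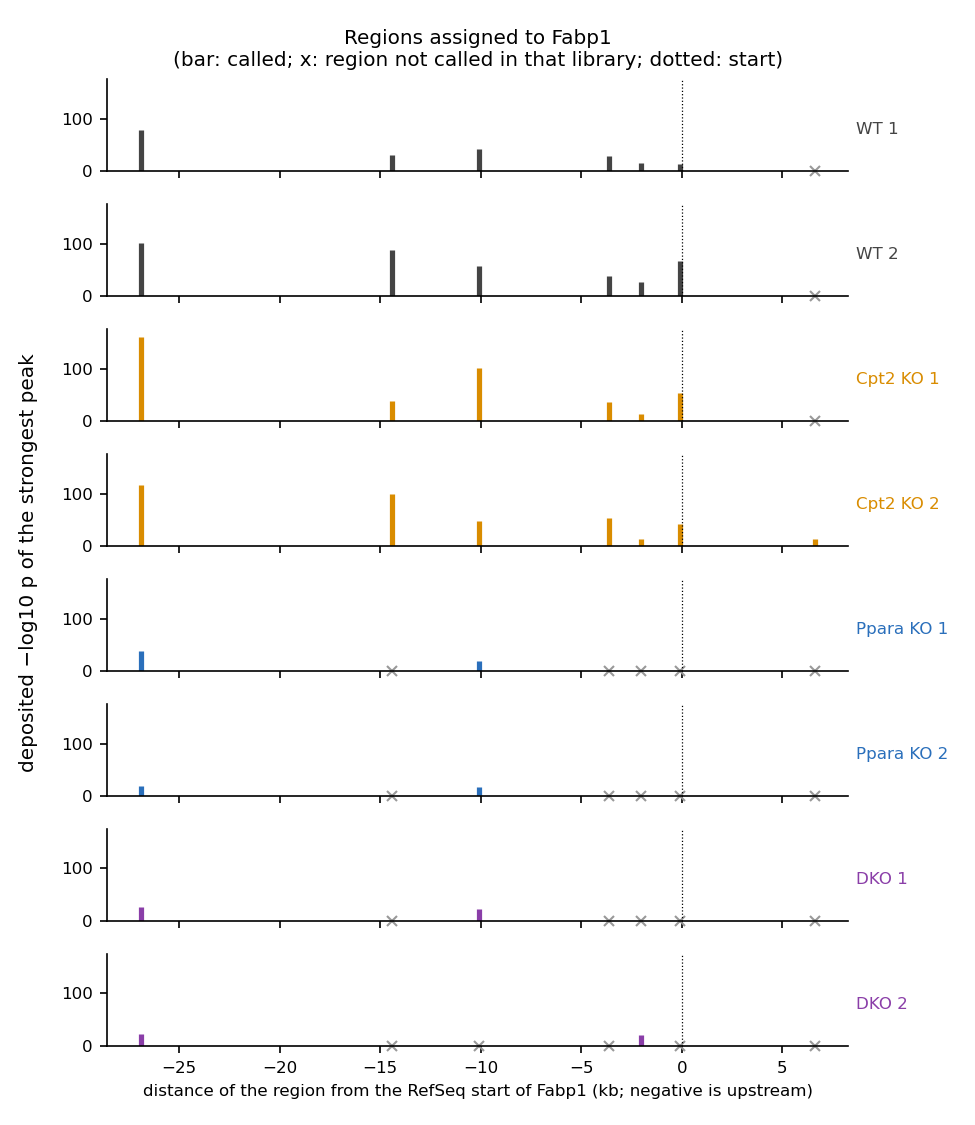
Deposited −log10 p (bar height) of the 7 regions assigned to Fabp1, by distance from the RefSeq start in kb (x axis), with 1 panel per library. Crosses mark regions not called. Ppara-intact panels hold 6 or 7 bars and Ppara-null panels 2 each.

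Cd36, on chromosome 5 from 17781690 to 17888959, had calls in double knockout and none in Ppara knockout. Its start in the promoter table, 17835896 on the minus strand, lies inside the gene span, so a region before that start can lie within the gene. No Ppara knockout library called any of its 8 regions, while each double knockout library called 2, the wild type libraries 2 and 4, and each Cpt2 knockout library 6. The region 4743 bp beyond the gene's far end (17776586 to 17776947) had a −log10 p of 116 and 56.5 in wild type, 62.7 and 73.8 in Cpt2 knockout, and 48.1 and 19.4 in double knockout. It was called in these 6 libraries in equal-number lists too. The region 27.4 kb before the listed start (17863083 to 17863449) had 51.7 in wild type 2, 41.2 and 49.3 in Cpt2 knockout and 20.3 in each double knockout library, and was not called in wild type 1. At both regions the double knockout values lay below those of every Ppara-intact library that called them. In equal-number lists the percentiles overlapped at both. Beyond the far end they were 35.1 to 92.2 in Ppara-intact libraries and 81.3 and 45 in double knockout. At the other region they were 7.14 to 37.5 in the Ppara-intact libraries that called it, and 29.9 and 48.35 in double knockout.

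Of the other Cd36 regions, none was called in a Ppara-null library. The pair 45.1 and 45.8 kb before the start had the higher values in Cpt2 knockout. The first (17880819 to 17881156) was called in Cpt2 knockout alone, with −log10 p of 16.8 and 50.3. The second (17881438 to 17881886) had 14.9 in wild type 2 and 44.7 and 83 in Cpt2 knockout. A region 88.5 kb upstream (17924220 to 17924628) had 17.8 in wild type 2 and 17.1 and 39.6 in Cpt2 knockout. The 3 remaining regions were called in 1 library each. Of these the one 14 kb upstream (17849633 to 17849999), in Cpt2 knockout 2, had a −log10 p of 67.3 and a percentile of 80.2 of its list, and the other 2 had 10 and 14.4. No region overlapped the 300 bases at the listed start in any library.

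**Figure D5:**
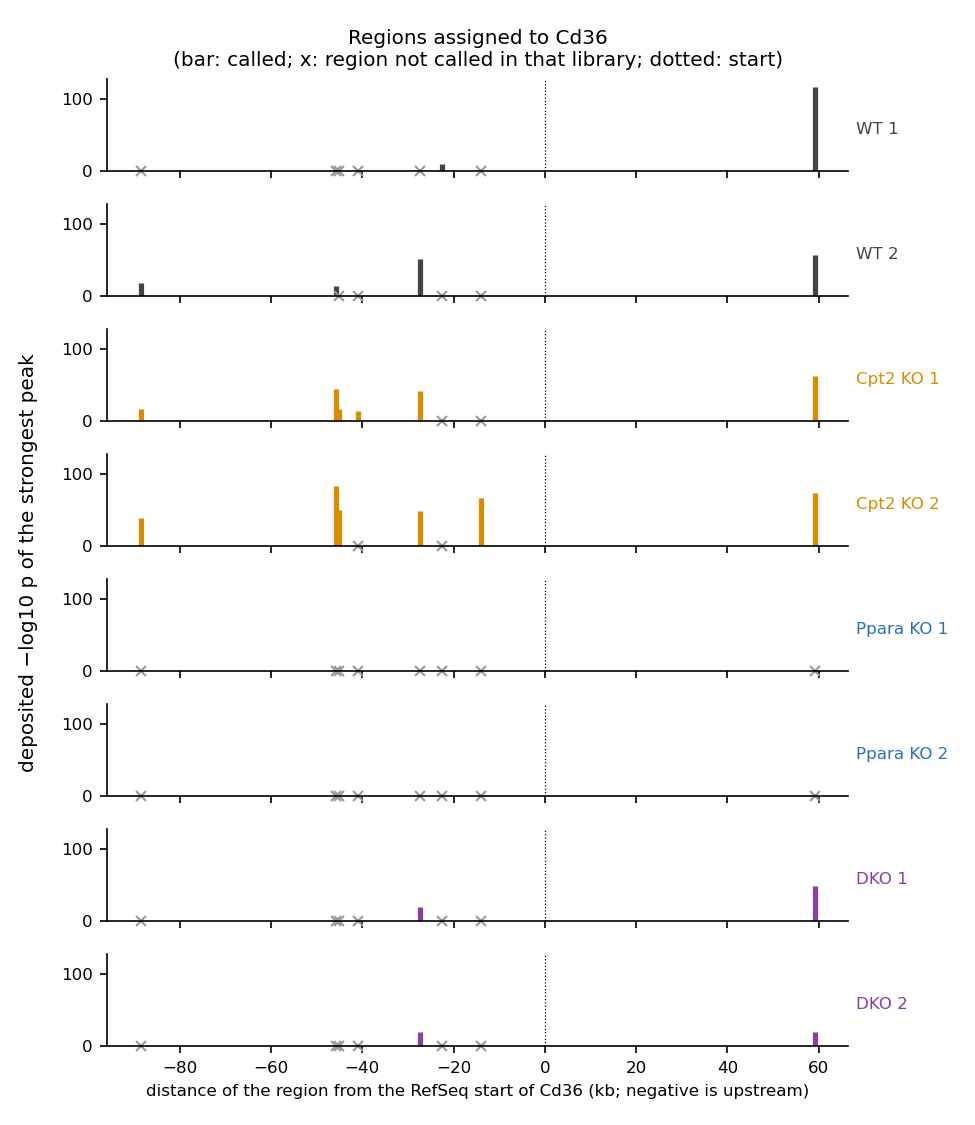
Deposited −log10 p (bar height) of the 8 regions assigned to Cd36, by distance from the RefSeq start in kb (x axis, positive is downstream), with 1 panel per library. Both Ppara knockout panels hold crosses alone, both double knockout panels hold 2 bars, and both Cpt2 knockout panels hold 6.

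Cd36 is also made by endothelium, macrophages and adipocytes, so regions of their marker genes are given beside it. The 52 regions of 8 endothelial genes were called at 36.5% to 73.1% where Ppara was intact and at 11.5% to 17.3% where it was lost. Of the 52, 4 were called in all 8 libraries, beside 22.7% of all regions. For 8 Kupffer cell and macrophage genes, 4 of which had no region, the 8 regions were called at 25% to 62.5% and 12.5% to 25%. For 5 adipocyte genes the 11 regions were called at 45.5% to 90.9% and 18.2% to 54.5%. Lists for stellate cells (11 regions, 36.4% to 54.5% and 0% to 18.2%), cholangiocytes (11 regions, 45.5% to 81.8% and 0% to 9.09%) and lymphocytes (1 region) held few regions. Among the markers without any region were Adgre1, Marco, Vsig4 and Cd5l of Kupffer cells, Krt7 and Krt19 of cholangiocytes, and Cd3e and Cd8a of lymphocytes. The 95 hepatocyte regions were called at 56.8% to 71.6% and 47.4% to 53.7%. Shares did not overlap between Ppara-intact and Ppara-null libraries for the endothelial, stellate, cholangiocyte and hepatocyte lists, nor over all consensus regions, as given above. In equal-number lists the hepatocyte shares turned round, with 32.6% to 36.8% where Ppara was intact and 40% to 50.5% where it was lost. There the endothelial shares overlapped (9.62% to 13.5% and 11.5% to 17.3%), as did the cholangiocyte ones (9.09% to 18.2% and 0% to 9.09%) at 1 value. Stellate regions were called in no Ppara-intact library and at 0% to 18.2% in the others. The part of other cell types in the Cd36 calls was not tested. In bulk tissue, fewer cells with an open region and less opening per cell cannot be told apart.

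Among the transport proteins, Slc27a2 (FATP2, the main hepatocyte form, which also activates very long chain fatty acids) lies on chromosome 2 from 126553024 to 126588243. The region over its start (126552625 to 126553405) was called in all 8 libraries, with −log10 p of 148 and 185 in wild type, 160 and 102 in Cpt2 knockout, 43.2 and 32.8 in Ppara knockout, and 72.7 and 29.3 in double knockout. All Ppara-intact values were above all Ppara-null ones, as at 76.4% of all regions called in all 8 libraries. Folds overlapped, at 7.576 to 11.59 with Ppara intact and 6.297 to 10.17 without. In equal-number lists the percentiles ran from 84.3 to 96.3 and from 70.3 to 93, and overlapped.

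A region inside Slc27a2, 22.5 kb after the start (126575358 to 126575768), had its highest values in Ppara knockout. Its −log10 p was 30 and 56.6 in wild type, 47 and 42.1 in Cpt2 knockout, 59.2 and 62.5 in Ppara knockout, and 33.9 and 30 in double knockout. Both Ppara knockout libraries were above the other 6, and folds gave the same order, with 10.5 and 10.6 in Ppara knockout and 6.26 to 8.61 elsewhere. In equal-number lists its percentile was 18.2 to 35.4 in Ppara-intact, 93.6 and 95.8 in Ppara knockout and 65.5 and 71.2 in double knockout libraries. There all Ppara-null percentiles were higher, as at 5.07% of the regions called in all 8 equal-number lists.

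The other 9 Slc27a2 regions were called in 1 to 5 libraries. The one 2.71 kb after the start (126555564 to 126555853) was called in both wild type, both double knockout and 1 Cpt2 knockout library, with −log10 p of 12 to 40.6, a combination shared by 4 regions in the series. Those 15.1 and 7.57 kb upstream were called in wild type 2 and both Cpt2 knockouts, at 22.9 to 50.5. A region 18.5 kb upstream was called in wild type 1 and Cpt2 knockout 1, and those 10.6 and 23 kb after the start in wild type 2 and Cpt2 knockout 1. The remaining 3 were called in 1 library each, among them the 1 member region called in a Ppara-null library alone, 8.46 kb upstream, in Ppara knockout 1 at a −log10 p of 10.

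Slc27a5 (FATP5), a liver form that also joins bile acids to coenzyme A, lies on chromosome 7 from 12988346 to 12998192. Its region inside the gene (12995894 to 12996319) had −log10 p of 54 and 63.8 in wild type, 85.2 and 61.9 in Cpt2 knockout, 17.9 and 16.4 in Ppara knockout and 25.3 in double knockout 1. The region over the edge of the gene span with the higher coordinate (12998055 to 12998442) had 23.3 and 52.5, 45 and 37.5, 14.4 and 17.8, and 17.8 in the same order. No start was listed for this gene, so whether that edge is its start was not read. Double knockout 2 called neither, nor any other region of Slc27a5. The region within 1 kb of that edge (12997294 to 12997594) was called in wild type 2 and both Cpt2 knockouts, at 27.6, 23.9 and 16.7.

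Slc27a4 (FATP4), a broadly made form, lies on chromosome 2 from 29802634 to 29817522. The region over its start (29802406 to 29802931) had −log10 p of 97.8 and 187 in wild type, 206 and 132 in Cpt2 knockout, 49.3 and 39.4 in Ppara knockout, and 65.6 and 42 in double knockout. The groups did not overlap in −log10 p, but in equal-number lists the percentiles were 87.6 to 96 and 84.9 to 90.9, and did. The other region, 212 bp beyond the gene's far end (29817734 to 29817938), was called in wild type 2 alone at 15.7.

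Slc27a1 (FATP1), known mostly from muscle and adipose tissue, lies on chromosome 8 from 71568728 to 71587307. The region spanning its second and the third listed start (71569431 to 71570843) had −log10 p of 86 and 163 in wild type, 140 and 106 in Cpt2 knockout, 32.2 and 18.4 in Ppara knockout, and 21.2 and 22.4 in double knockout. Its equal-number percentiles were 83.6 to 92.2 with Ppara intact and 32.7 to 71.6 without. It was the 1 member region whose percentiles did not overlap with Ppara-intact higher, as at 5.95% of such regions. Its summits in both Ppara knockouts and in double knockout 1 lay 225 to 227 bases before the third start, and in the other 5 libraries 61 to 111 bases before it. The region at the first start (71568325 to 71568835) was called in wild type 1 and both Cpt2 knockouts, at 11.2, 14.4 and 21.2.

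Of the binding proteins besides Fabp1, Fabp2 lies on chromosome 3 from 122895072 to 122899506. The region 6.6 kb before its start (122888252 to 122888702) was called in all 8 libraries, with −log10 p of 30.3 and 74.9 in wild type, 95 and 50.5 in Cpt2 knockout, 27.4 and 22.2 in Ppara knockout, and 19.4 and 16.6 in double knockout. The region 0.438 kb after the start (122895206 to 122895686) had 14.9 and 23.2, 49.3 and 81.7, 17.5 and 14.1, and 19.4 and 24.2 in the same order. There both Cpt2 knockout libraries were above the other 6, and both wild type libraries lay within the Ppara-null range. In equal-number lists neither wild type library called that region, while the 6 others did. The regions 16 and 7.22 kb before the start were called in both Cpt2 knockouts alone, at 13.1 to 29.9, and that 9.23 kb after it in Cpt2 knockout 1 alone.

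Fabp4, on chromosome 3 from 10204342 to 10208616, had no region of its own. The nearest lay 28921 bp away, was nearer to Fabp12 and was called in Ppara knockout 2 alone. The next, 30267 bp away and nearer to Pmp2, was called in Cpt2 knockout 2 alone. Within 100 kb of Fabp4 lay 12 regions, all nearer to other genes.

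For the 7 regions called in all 8 libraries, −log10 p was higher in every Ppara-intact than in every Ppara-null library at 5, beside 76.4% of all 11258 such regions. By fold this held at 4 of 7, beside 60%. The opposite order held at none by either measure, beside 0.329% and 0.222%. In equal-number lists 6 member regions were called in all 8, and 1 had higher percentiles throughout in Ppara-intact and 1 in Ppara-null libraries. The higher −log10 p of Ppara-intact libraries was thus found at 71.4% of these member regions, near the share of all regions.

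Loss of Cpt2 was compared where Ppara was intact. Called in both Cpt2 knockouts and in neither wild type library were 3 member regions (7.89%, beside 3.63% of all regions), 1 at Cd36 (45.1 kb before the start) and 2 at Fabp2 (16 and 7.22 kb before the start). None was called in wild type only, beside 0.512%, or beside 0.815% in equal-number lists. In equal-number lists 2 regions were called in Cpt2 knockout only, beside 0.918%, the one of Cd36 45.8 kb before its listed start and the one just inside Fabp2, so the counts rest on different regions. The count of 3 became 9 without wild type 2 (beside 12% of all regions) and 6 without either Cpt2 knockout library (beside 9.83% without the first and 11.7% without the second). With peaks under a −log10 q of 20 dropped it was 1 (beside 2.21%). The comparison has 2 libraries against 2, for which the smallest two-sided exact p is 0.333, and no test was made of this or the other pairs.

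Where Ppara was already lost, 3 regions were called in both double knockouts and in neither Ppara knockout (7.89%, beside 2.33% of all regions), and none the reverse, beside 1.45%, or beside 1.84% in equal-number lists. They were the regions of Cd36 beyond its far end and 27.4 kb before its start, and the one of Slc27a2 2.71 kb after its start. The Cd36 pair was separated in equal-number lists too, as 2 regions beside 2.03%. At a −log10 q of at least 20 the count was 0, beside 1.85%: double knockout 1 still called the Cd36 region beyond the far end, double knockout 2 did not, and neither called the other 2. By Cpt2 status over all 8 libraries, no member region was called in the 4 Cpt2-null libraries alone or in the 4 Cpt2-intact ones alone, beside 0.0968% and 0.00605% of all regions, nor in equal-number lists, beside 0.0403% and 0.0544%. By the exact test no member had an unadjusted p under 0.05 for Cpt2 status, as 51 regions of the series did.

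Ppara-null libraries were set against Ppara-intact ones in 3 pairs. The first and second share the wild type libraries, and the second and the third share the double knockout libraries. The second pair also differs in Cpt2, so loss of Ppara and loss of Cpt2 cannot be told apart there. Against Ppara knockout, 6 member regions were called in wild type only (15.8%, beside 13.6%), 4 at Fabp1, 1 at Cd36 and 1 at Slc27a2, and none in Ppara knockout only, beside 0.46%. In double knockout against wild type, 3 were called in wild type only (7.89%, beside 12.9%), all at Fabp1, and none in double knockout only, beside 1.2%. In double knockout against Cpt2 knockout, 12 were called in Cpt2 knockout only (31.6%, beside 20.4%), and none in double knockout only, beside 0.597%, or beside 2.61% in equal-number lists. These 12 were 3 each at Cd36 and Fabp1, 2 each at Fabp2 and Slc27a2, and 1 each at Slc27a1 and Slc27a5.

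Equal-number lists reduced these counts to 3 of 38 in wild type only against Ppara knockout (beside 3.44%), 2 against double knockout (beside 3.35%), and 3 in Cpt2 knockout only against double knockout (beside 2.99%). In each of these 3 counts, 2 or fewer came from Fabp1 and any other from Cd36. The region just inside Fabp2 was there called in both Ppara knockouts (beside 2.38%) and both double knockouts (beside 3.08%) and in neither wild type library. Its −log10 p of 14.9 and 23.2 in wild type overlapped the 14.05 to 24.2 of Ppara-null libraries. The weakest peaks kept in wild type had 21.75 and 36.6. Leaving out wild type 1 raised the counts of regions called in wild type only to 15 against Ppara knockout (39.5%, beside 29.8% of all regions under the same omission) and 11 against double knockout (28.9%, beside 29.6%). The latter count was 6 without wild type 2 (beside 16.9%) or without double knockout 1 (beside 21.3%). With a library left out, fewer have to call a region.

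Other genes of the pathway were read from a list. The rest of the binding and transport families were 9 genes with 30 regions. Of these, 1 at Fabp5 was called wherever Ppara was intact and nowhere else (3.33%, beside 6.82% of all regions). Another 2 were called in all 8 libraries, beside 22.7%. Fabp9 and Slc27a3 had no region. The 14 uptake and trafficking partners had 88 regions. Of these, 15 (17%, beside 6.82%) were called in Ppara-intact libraries only, and 4 in equal-number lists, beside 0.811%. In all 8 libraries 20 were called, beside 22.7%. Neither list had a region called in the Ppara-null libraries only, beside 0.0686%, except 1 at Acsl1 in equal-number lists, beside 0.512%. At Mfsd2a, which encodes a carrier of lysophospholipids, the region on chromosome 4 from 122960923 to 122961440 had −log10 p of 73.9 and 90.8 in wild type and 101 and 56.6 in Cpt2 knockout. A second region, 9910 bp from Mfsd2a (122971104 to 122971731), had 46.6, 69, 64.7 and 47.6 in the same order, and both stayed separated in equal-number lists. So did 2 regions of Acsl1, which joins long-chain fatty acids to coenzyme A. The one inside that gene (chromosome 8, 46490738 to 46491174) had 32.1 and 57.6 in wild type and 44.6 and 50.7 in Cpt2 knockout. A further region of Acsl1 (46529488 to 46530019) was called in all 8 libraries, at 17.2 to 35.3 with Ppara intact and 33 to 81.9 without. It was the region called in the 4 Ppara-null libraries alone once lists were of equal number.

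Genes whose calls were most like the members as a whole were sought among 772 other genes with at least 10 regions. The measure was the mean absolute difference, over the 8 libraries, in the share of regions called. The 5 nearest were Dyrk1a (3.2 percentage points), Nt5c2 (3.56), Shb (3.73), Sh3pxd2a (3.85) and Corin (4.16), beside a median of 10.8 points over the 772 genes. At Dyrk1a, for example, wild type libraries called 50% and 64.3% of 14 regions, Cpt2 knockout libraries 78.6% each, Ppara knockout libraries 28.6% and 35.7%, and double knockout libraries 42.9% and 28.6%.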

How the data were processed

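ATAC-seq peak lists of 8 liver libraries were used, grouped by the genotype in the sample titles. Per the submitters' processing notes, reads were aligned with BWA and peaks called with MACS2 2.1.0 on mm10. The BWA version, duplicate handling, Tn5 offset and any scaling of reads are not given in the sources used here. The score deposited by the authors is 10 times −log10 p rounded down for 99.99% to 100% of peaks, and was not used further. Their deposited fold is the ratio of pileup to local background, and their deposited −log10 p and −log10 q values are those at the summit. Consensus positions were deposited by the authors in a further table whose 8 interval tracks each equal 1 list. Coordinates are printed counted from 1.

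No counts per region were at hand, so calls were compared. Gene positions are RefSeq's for GRCm38.p6 (21887 protein-coding genes on assembled chromosomes); distance was measured to the gene span. A region of 2 groups was separated when all libraries of one and none of the other called it. Status was tested per region by Fisher's exact test, two-sided, with Benjamini-Hochberg adjustment over 49587 regions. The code recovered separated regions planted in simulated calls. The planted pattern was the one counted, so this checks the code alone. Alternatives were equal-number lists, a −log10 q of at least 20, peaks covering 50% of a region, no ties, a 20 kb limit, each library left out, and the replicate number as a block. Where a region held several peaks of a library, the one with the highest −log10 p gave the values. The replicate numbers carry no stated litter or day.

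Values in every library are given for the strongest region of each gene, separated regions and regions at gene ends; other regions are given by range, except that some were named after their values were seen. The members, lists and motifs were chosen with earlier results of these data known. Python 3.11.15, NumPy 2.4.6, SciPy 1.17.1, pandas 2.3.3 and matplotlib 3.10.9 were used.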

Additional observations from a re-analysis of the deposited data

Results flagged for a closer look

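At the Slc27a2 region on chromosome 2 from 126575358 to 126575768, deposited −log10 p differed in opposite directions between Ppara-null and Ppara-intact libraries with and without Cpt2. Mean −log10 p was 43.3 in wild type and 60.9 in Ppara knockout, a difference of 17.6 (17.58 before rounding), with both knockout libraries above both wild type ones. It was 44.5 in Cpt2 knockout and 32 in double knockout, a difference of -12.6, with both double knockout libraries below both Cpt2 knockout ones. Deposited folds did not show this second difference. They were 7.678 and 6.259 in Cpt2 knockout and 7.426 and 6.997 in double knockout, and overlapped. By fold, Ppara knockout (10.52 and 10.56) was above wild type (6.722 and 8.608). The percentiles in equal-number lists did not show opposite directions: they were 24.6 and 35.4 in wild type, 93.6 and 95.8 in Ppara knockout, 18.2 and 24.2 in Cpt2 knockout, and 65.5 and 71.2 in double knockout, higher where Ppara was lost on both backgrounds. The difference between these effects was not tested, and −log10 p is not scaled between libraries.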

How the results depend on the processing

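Equal-number lists gave 1 member region called only in Ppara-intact libraries in place of 3 (beside 0.811% of all regions). They gave 3 in place of 6 for wild type against Ppara knockout (beside 3.44%). For Cpt2 knockout against double knockout there were 3 in place of 12 (beside 2.99%). Against wild type there was 1 in place of 0 for Ppara knockout (beside 2.38%) and for double knockout (beside 3.08%). These lists hold fewer Ppara-intact peaks by construction. At a −log10 q of at least 20 the count for Cpt2 knockout against wild type was 1 in place of 3 (beside 2.21%). For wild type against double knockout it was 6 in place of 3 (beside 13.4%). For double knockout against Ppara knockout it was 0 in place of 3 (beside 1.85%). The cause was not tested. A cover of 50%, the 20 kb limit and leaving out ties, of which members had none, each kept all 14 counts within 1.5 times.

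Leaving out 1 library asks fewer libraries to call a region, so counts can rise by construction. Regions called only in Ppara-intact libraries then numbered 3 to 8 (beside 7.22% to 11.8% of all regions), the 8 without wild type 1. Those called only in Cpt2-null libraries numbered 0 to 1 (beside 0.119% to 0.29%). For Cpt2 knockout and wild type, counts ran from 4 to 9 (beside 5% to 12%) and 0 to 1 (beside 1.21% to 5.37%). For Ppara knockout and wild type they ran from 0 to 1 (beside 0.643% to 2.31%) and 6 to 15 (beside 17.4% to 29.8%). For double knockout and wild type they ran from 0 to 1 (beside 1.52% to 4.1%) and 4 to 11 (beside 14.9% to 29.6%). For double knockout and Cpt2 knockout they ran from 0 to 1 (beside 1.07% to 2.87%) and 13 to 18 (beside 22.8% to 34.5%). For double knockout and Ppara knockout they ran from 3 to 4 (beside 3.81% to 8.48%) and 0 to 3 (beside 2.13% to 5.41%). Of the single libraries, wild type 2 moved Cpt2 knockout against wild type most, to 9 (beside 12%). Without double knockout 1, Ppara knockout had 3 regions that double knockout lacked (beside 4.6%). With the replicate number as a block, the smallest exact p of a region was 0.0556 in place of 0.0286 for Ppara status and for Cpt2 status, as 36 orders allow no less. Among regions called in all 8 libraries, 5 of 7 had every −log10 p higher in Ppara-intact (beside 76.4%). By percentile in equal-number lists this fell to 1 of 6 (beside 5.95%), a comparison chosen after seeing the data.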
